A study of Mus musculus with 12 samples.

Results

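The sex difference described here is that between wild-type XY and wild-type XX mouse gonads at the embryonic stage E11.5, the day around which the gonad, until then alike in both sexes, takes the testis or the ovary path. Its members are the 6 arrays titled wild type, 3 XY and 3 XX, of 12 arrays in the series, and they were chosen by those titles alone. The other 6 arrays, 3 XY and 3 XX, carry a knockout (KO) of Cbx2, a Polycomb chromatin protein, and are used here to estimate the spread and for a test of whether the sex difference depends on genotype. All groups share the age, the tissue and the preparation, and the labels name no treatment. Gonadal cells were cut by laser microdissection from 30 µm sections, found by their form and by staining for GATA4, and each array holds material pooled from 2 or 3 embryos. P-values therefore measure the spread between such pools. From each pool 15 ng of RNA was amplified in a pair of rounds. The knockout embryos came from heterozygous parents, and the labels name no strain.

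In mammals the Y-linked gene Sry switches on Sox9 in the supporting cells of the XY gonad, and SOX9 with the secreted factor FGF9 then holds these cells on the Sertoli path. In the XX gonad WNT4 and R-spondin 1 act through β-catenin, and FOXL2 and follistatin mark the pregranulosa cells. At E11.5 these programmes are only starting, and many genes that later tell testis from ovary are shared by both sexes.

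Expression is given as the log2 values that the authors deposited after RMA (robust multi-array average, a background-corrected, quantile-normalised summary of the probes of a gene), so a difference of 1 is a 2-fold change. Of 18193 genes with a probe set of their own, 17404 lie on an autosome and are reported. Differences are XY minus XX ± standard error from limma, and a gene was called at an adjusted p under 0.05. Values in a row are those of replicates 1, 2 and 3.

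The sex labels matched the arrays. Xist, the RNA that silences an X chromosome in XX cells, lay between 12.55 and 12.75 in WT XX and between 5.99 and 6.09 in WT XY. The Y-linked Eif2s3y lay between 3.12 and 3.42 in WT XX and between 9.36 and 9.75 in WT XY. The tissue also showed its defining factors on every wild-type array: Gata4 lay between 8.61 and 9.29, Nr5a1 between 9.87 and 10.33, Wt1 between 11.02 and 11.24 and Lhx9 between 12.41 and 12.84. In the source description of the wild-type samples a KO XX group is named, against their titles and genotype field, and the titles were followed.

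WT XX replicate 1 resembled the XY arrays more than its own group. Mean correlations between arrays were taken across autosomal genes. WT XX replicates 2 and 3 had 0.991 with the other XX arrays, and 0.990 and 0.989 with the XY arrays. WT XX replicate 1 had 0.988 with the other XX arrays and 0.996 with the XY arrays. Its 9 hybridisation spike-in probe sets, which read bacterial transcripts added to every sample, averaged 10.09, the lowest of the 12 arrays, against 11.15 and 11.01 in WT XX replicates 2 and 3. In WT XY they averaged 10.58, 10.51 and 10.36. Its Gapdh 3' minus 5' difference, a measure of how complete the amplified RNA is, was 3.83, against 4.37 and 4.72 in the other XX arrays and 3.89, 4.57 and 3.92 in WT XY. Over all 6 arrays neither measure differed between the sexes beyond the spread (XY minus XX of -0.261 for the spike-ins, exact two-sided permutation p = 0.5, and of -0.178 for Gapdh, exact p = 0.7, with 0.1 the smallest p possible). Replicate 1 was kept in the comparison, and values without it are given beside the genes and counts described most fully; ranges of summed marker levels include it.

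With all arrays, 5 autosomal genes were called, 0.0287% of those tested, and all 5 were higher in XY: Sox9, Mmd2, Map3k21, Cnga1 and Rnase1. None was called higher in XX by limma, although 551 genes (3.17%) higher in XX and 1259 (7.23%) higher in XY had an unadjusted p under 0.05. The sexes did not overlap in 2297 genes (13.2%): every XY array lay above every XX array in 1738 (9.99%), and every XX array above every XY array in 559 (3.21%). For a single gene, such separation of 3 from 3 arrays gives an exact two-sided permutation p of 0.1. It is therefore not rare where the sexes do not differ. The median difference over all autosomal genes was 0.03, and repeating quantile normalisation or centring the arrays moved it to 0.00 or -0.01. A difference of 2-fold or more was reached by 14 genes, 10 higher in XY and 4 higher in XX.

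Sox9, the factor that sets supporting cells on the Sertoli path, showed the largest difference of any autosomal gene over the 6 arrays. It read 6.32, 6.48 and 6.14 in WT XX and 8.96, 8.56 and 8.64 in WT XY. The lowest XY array thus lay more than 2 log2 units above the highest XX array, and WT XX replicate 1 lay between the other XX arrays. The difference was 2.41 ± 0.18 (95% confidence interval 2.01 to 2.80, a 5.30-fold ratio, adjusted p = 7.50e-06), and without WT XX replicate 1 it was 2.41 ± 0.21 (adjusted p = 2.92e-05). Its second probe set read 6.34, 5.99 and 6.14 in XX and 8.32, 7.79 and 7.82 in XY. The third read 4.11, 4.38 and 4.59 in XX and 4.56, 4.80 and 5.23 in XY and overlapped between the sexes. More Sox9 RNA per cell and more cells that express Sox9 cannot be told apart in such pools, and this holds for every gene below.

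Sox9 was also the only called gene whose call held in every alternative in which it was tested (25, adjusted p from 1.29e-06 to 0.000327). The other 4 calls rest on the genes of the sex chromosomes entering the adjustment: with p-values adjusted over the autosomal genes alone, Mmd2, Cnga1 and Rnase1 had an adjusted p of 0.0858 and Map3k21 one of 0.0880. They were likewise lost when the wild-type arrays were fitted alone in limma (adjusted p from 0.199 for Cnga1 to 0.575 for Map3k21). With the replicate number added to that fit as a block, an alternative that was not planned, Map3k21 was called (adjusted p = 0.0104). Cnga1, Mmd2 and Rnase1 were not called there (adjusted p = 0.0509, 0.163 and 0.186).

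Mmd2, a membrane protein of the progestin and adipoQ receptor family, read 6.22, 6.57 and 6.13 in WT XX and 8.96, 7.54 and 7.83 in WT XY. All XY arrays were higher, XY replicate 1 most of all. The difference was 1.81 ± 0.29 (adjusted p = 0.0359, and 0.00461 without WT XX replicate 1). Its other probe sets were close between the sexes, at 5.79, 5.97 and 6.15 in XX against 6.52, 6.07 and 6.26 in XY, and at 5.40, 5.37 and 5.62 in XX against 5.62, 5.57 and 5.35 in XY. The call therefore rests on 1 of 3 probe sets.

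Map3k21, a kinase of the mixed-lineage family, read 5.85, 5.06 and 4.65 in WT XX and 7.67, 6.41 and 6.83 in WT XY. The groups did not overlap, and replicate 1 was the highest array in each sex. The difference was 1.78 ± 0.29 (adjusted p = 0.0418, and 0.000579 without WT XX replicate 1). A dimmer probe set of the gene read 4.12, 4.11 and 4.38 in XX and 4.69, 4.13 and 4.21 in XY, which overlap.

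Cnga1, a subunit of a cyclic-nucleotide-gated ion channel, read 6.44, 5.70 and 5.69 in WT XX and 7.36, 7.13 and 7.41 in WT XY. The XY arrays were tightly grouped, while WT XX replicate 1 lay above its group. The difference was 1.36 ± 0.22 (adjusted p = 0.0359, and 0.000534 without that array).

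Rnase1, a secreted ribonuclease, read 5.28, 4.998 and 5.58 in WT XX and 6.80, 6.31 and 6.17 in WT XY. No array of one sex reached the other. The difference was 1.14 ± 0.18 (adjusted p = 0.0304, and 0.00342 without WT XX replicate 1). With the replicate number as a block the call was lost (adjusted p = 0.0552), and the count of called genes was 6, with Fbln2 and Glra1 added. Of these 6, 5 were higher in XY and 1, Glra1, was higher in XX. Glra1 read 6.94, 7.05 and 7.43 in WT XX and 5.76, 6.11 and 6.66 in WT XY. Its difference was -0.96 ± 0.21 without the block (adjusted p = 0.290).

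**Figure D1:**
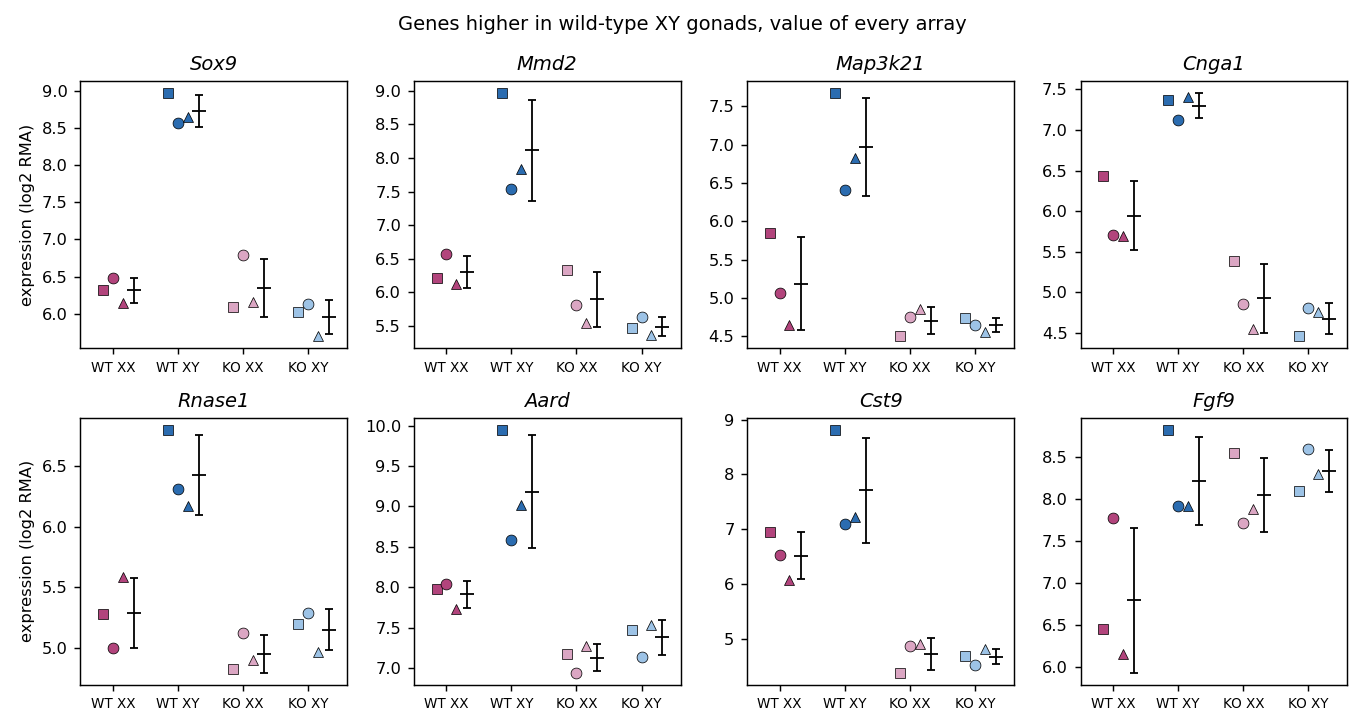
Log2 RMA expression (y axis) of 8 genes in every array of the 4 groups (x axis); squares, circles and triangles are replicates 1, 2 and 3, and the dash with bars is the group mean ± SD of 3 arrays. In all 8 panels the 3 WT XY arrays lie above the 3 WT XX arrays, and for Sox9 the KO arrays lie between 5.70 and 6.79, near WT XX.

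The promoters of 3 called genes are shown because these genes were higher in XY together with Sox9, whose protein binds DNA. Each window runs from 250 bases before to 50 bases after the start of the gene as annotated by RefSeq on GRCm38.p6, and 4 of the 5 called genes have such a window. Capitals mark matches, on either strand, to the core letters of SOX and SRY sites (AACAAT), of GATA sites (GATAA) and of NR5A1 sites (AAGGTCA). The windows lie at chr5:72642703-72643002 for Cnga1, chr5:142608703-142609002 for Mmd2 and chr14:51146718-51147017 for Rnase1, all on the minus strand.
Cnga1: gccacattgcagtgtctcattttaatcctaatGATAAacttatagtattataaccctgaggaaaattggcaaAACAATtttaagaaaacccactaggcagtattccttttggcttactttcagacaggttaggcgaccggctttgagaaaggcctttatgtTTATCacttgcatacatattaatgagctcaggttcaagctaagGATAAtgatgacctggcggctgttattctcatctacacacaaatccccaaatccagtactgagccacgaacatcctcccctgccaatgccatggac
Mmd2: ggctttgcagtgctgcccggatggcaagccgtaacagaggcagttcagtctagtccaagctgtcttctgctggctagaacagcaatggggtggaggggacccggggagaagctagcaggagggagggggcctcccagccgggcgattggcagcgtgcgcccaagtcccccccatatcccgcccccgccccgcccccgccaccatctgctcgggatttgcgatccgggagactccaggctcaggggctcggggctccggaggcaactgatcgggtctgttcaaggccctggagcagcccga
Rnase1: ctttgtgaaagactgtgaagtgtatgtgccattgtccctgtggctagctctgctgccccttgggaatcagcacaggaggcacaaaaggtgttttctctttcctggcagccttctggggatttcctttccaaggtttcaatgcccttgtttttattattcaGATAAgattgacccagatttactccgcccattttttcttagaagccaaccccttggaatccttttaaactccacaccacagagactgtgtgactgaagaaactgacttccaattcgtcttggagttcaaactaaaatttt
The Cnga1 window held 1 SOX core and 3 GATA cores, the Rnase1 window 1 GATA core, and the windows of Mmd2 and Map3k21 none of the 3 motifs. Among 32851 windows of that length the SOX core was found in 10.7%, the GATA core in 25.4% and the NR5A1 core in 4.72%. A match here is a description of letters and not a binding site.

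Beyond Sox9, the testis and Sertoli list (23 of 24 genes measured) held no called gene. All 3 XY arrays lay above all 3 XX arrays in 6 members, against 9.99% of all autosomal genes. These were Sox9, Aard, Cst9, Fgf9, Cyp26b1 and Amh, and the groups of Amh, given below, were separate by little. All XX arrays lay above all XY arrays in 0 members, against 3.21% of all autosomal genes. A list of 23 genes is too short to tell 0 from that share. The list's median difference was 0.11, against 0.03 over all autosomal genes. XY replicate 1 was the highest XY array in 17 of the 23 members (73.9%), against 42.3% of all autosomal genes.

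Aard, a gene of Sertoli cells with an alanine- and arginine-rich domain, read 7.97, 8.04 and 7.73 in WT XX and 9.95, 8.58 and 9.02 in WT XY. The sexes did not overlap, but the XY arrays spread over more than 1 log2 unit. The difference was 1.27 ± 0.25 (adjusted p = 0.187, and 0.0110 without WT XX replicate 1). Cst9, a cystatin-related gene, read 6.94, 6.53 and 6.07 in XX and 8.82, 7.09 and 7.23 in XY. Here too XY replicate 1 was far above the others. The difference was 1.199 ± 0.35 (adjusted p = 0.459, and 0.0269 without WT XX replicate 1), and it was 0.65 without that XY array (adjusted p = 0.804).

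Fgf9, the growth factor that sustains Sox9, read 6.45, 7.77 and 6.16 in WT XX and 8.82, 7.91 and 7.92 in WT XY. WT XX replicate 2 nearly reached the XY arrays. The difference was 1.42 ± 0.36 (adjusted p = 0.418, 0.0530 without WT XX replicate 1 and 0.0223 without WT XX replicate 2). Cyp26b1, the enzyme that breaks down retinoic acid in the fetal testis, read 7.33, 7.48 and 7.37 in XX and 8.24, 7.82 and 8.11 in XY. Both groups were tight and apart. The difference was 0.67 ± 0.13 (adjusted p = 0.199, and 0.0174 without WT XX replicate 1).

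Cbln4, a secreted cerebellin, read 8.38, 7.03 and 7.68 in WT XX and 8.35, 8.57 and 8.68 in WT XY. Only WT XX replicate 1 reached the XY level. The difference was 0.84 ± 0.25 with it (adjusted p = 0.459) and 1.18 without it (adjusted p = 0.00290), but 0.50 without WT XX replicate 2 (adjusted p = 0.862). For Dmrt1, a transcription factor needed to keep the testis fate later, the same array also matched XY but in the other direction, with 9.65, 10.60 and 10.89 in XX and 9.76, 10.01 and 9.99 in XY. The Dmrt1 difference was -0.46 ± 0.28 (adjusted p = 0.555), -0.82 without that array (adjusted p = 0.0302) and -0.20 without WT XX replicate 3 (adjusted p = 0.969). Fgfr2, a receptor of FGF9, read 10.07, 10.89 and 10.95 in XX and 10.12, 10.38 and 10.29 in XY, a difference of -0.38 ± 0.19 (adjusted p = 0.501), of -0.66 without replicate 1 (adjusted p = 0.00933), and of -0.25 and -0.22 without XX replicates 2 and 3.

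Amh, the hormone of differentiated Sertoli cells that removes the Müllerian duct, had a difference of 0.11 ± 0.11 (adjusted p = 0.736), with 6.51, 6.56 and 6.53 in XX and 6.71, 6.65 and 6.57 in XY. Inhbb, a subunit of activin and inhibin, had -0.03 ± 0.23 (adjusted p = 0.977). The transcription factor Sox8, a relative of Sox9, had 0.05 ± 0.12 (adjusted p = 0.929), and Dhh, the hedgehog ligand of Sertoli cells, 0.28 ± 0.24 (adjusted p = 0.698). These 4 differences were 0.10, 0.01, 0.03 and 0.52 without WT XX replicate 1, and none was called. Tesc and Adamts16 had 0.76 ± 0.34 and 0.58 ± 0.22 and overlapped between the sexes, and without WT XY replicate 1 they had 0.21 and 0.30. The remaining members (Sox10, Ptgds, Mro, Hsd17b3, Vnn1, Col9a3, Erbb4, Pdgfa and Fgf18) lay between -0.17 and 0.24. Without WT XX replicate 1 the list had 5 members called higher in XY (Sox9, Cbln4, Cst9, Aard and Cyp26b1) and 2 called higher in XX (Dmrt1 and Fgfr2), against 4.96% and 5.42% of all autosomal genes.

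**Figure D2:**
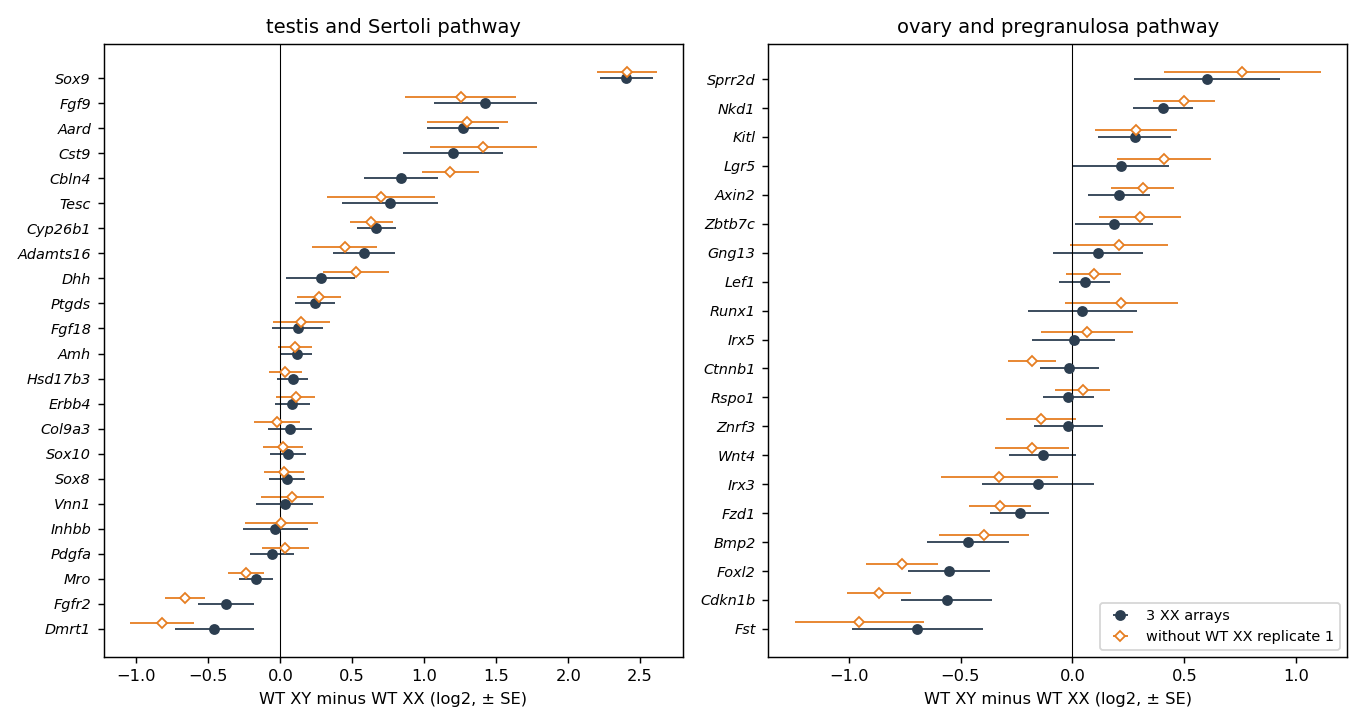
Difference between WT XY and WT XX (x axis, log2, ± standard error from limma) for each measured gene (y axis) of the testis list on the left and the ovary list on the right; filled circles use 3 XX arrays and open diamonds leave out WT XX replicate 1. Sox9 is set apart at 2.41, and Fst has the lowest value of both lists at -0.69.

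None of the 20 ovary and pregranulosa genes was called, and their median difference was -0.00 (0.05 without WT XX replicate 1), with 10 above and 10 below 0. Foxl2, the transcription factor of granulosa cells, read 6.60, 7.51 and 6.95 in WT XX and 6.58, 6.53 and 6.29 in WT XY. All XX arrays were higher, though replicate 1 was so by little. The difference was -0.55 ± 0.18 (adjusted p = 0.459, and 0.0102 without WT XX replicate 1), but -0.30 without WT XX replicate 2 (adjusted p = 0.862). Fst, which binds and blocks activin, read 9.50, 10.89 and 9.67 in XX and 9.14, 9.55 and 9.28 in XY, and its XX mean is raised by replicate 2. The Fst difference was -0.69 ± 0.29 (adjusted p = 0.462, and 0.0503 without WT XX replicate 1), and it was -0.26 without replicate 2 (adjusted p = 0.876).

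Cdkn1b, an inhibitor of the cell cycle, read 8.81, 9.70 and 9.74 in WT XX and 8.64, 9.08 and 8.84 in WT XY. WT XX replicate 1 lay among the XY arrays. The difference was -0.56 ± 0.21 (adjusted p = 0.460), and -0.87 without that array (adjusted p = 0.00279). The signalling ligand Bmp2 had -0.47 ± 0.18 (adjusted p = 0.460). The main ovarian WNT genes were close to 0: Wnt4 had -0.13 ± 0.15 (adjusted p = 0.789), Rspo1 -0.02 ± 0.11 (adjusted p = 0.976) and Ctnnb1, which encodes β-catenin, -0.01 ± 0.13 (adjusted p = 0.983). The 3 values were -0.18, 0.05 and -0.18 without WT XX replicate 1, and none was called. Nkd1, a feedback inhibitor of WNT signalling, was the list's only gene called higher in XY without WT XX replicate 1 (0.50, adjusted p = 0.0365), against 0.40 ± 0.13 with it (adjusted p = 0.459). The WNT feedback gene Axin2 had 0.21 ± 0.14, the receptors Lgr5 and Fzd1 had 0.22 ± 0.21 and -0.24 ± 0.13, and Kitl, the ligand of KIT, had 0.28 ± 0.16. Sprr2d had 0.60 ± 0.32 (0.14 without WT XX replicate 3), and the other members (Irx3, Irx5, Runx1, Lef1, Gng13, Znrf3 and Zbtb7c) lay between -0.15 and 0.18.

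Of 19 early gonad factors none was called. The 4 with every XY array above every XX array, against 9.99% of all autosomal genes, were Tcf21, Cbx2, Wt1 and Gadd45g. Tcf21, a helix-loop-helix factor of gonadal mesenchyme, read 11.34, 10.83 and 10.72 in XX and 11.65, 11.60 and 11.37 in XY. Its difference was 0.58 ± 0.17 (adjusted p = 0.459, and 0.00757 without WT XX replicate 1). Cbx2, the gene deleted in the knockout, read 8.77, 8.46 and 8.57 in XX and 8.93, 9.04 and 8.81 in XY, a difference of 0.32 ± 0.12 (adjusted p = 0.460, and 0.0498 without WT XX replicate 1). Nr5a1, the nuclear receptor that gonadal and steroid-making cells need, had 0.18 ± 0.16 (adjusted p = 0.723), Gata4 0.11 ± 0.16 (adjusted p = 0.853) and Lhx9 0.22 ± 0.17 (adjusted p = 0.663); without WT XX replicate 1 they had 0.32, 0.30 and 0.31, and none was called. The transcription factor Six4 was the member with every XX array above every XY array (-0.37 ± 0.17, adjusted p = 0.474, and -0.14 without WT XX replicate 2). Without WT XX replicate 1, Tcf21, Cbx2 and Zfpm2, the partner of GATA4, were called higher in XY (4.96% of all autosomal genes) and the insulin receptor gene Insr higher in XX (5.42%).

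None of the genes on the signalling lists was called; these lists share members with the testis and ovary lists. Of 20 FGF and ERK genes, 6 had every XY array above every XX array, against 9.99% of all autosomal genes, and their median was 0.08 (0.02 without WT XX replicate 1). Fgf9 is among these 6, and 4 of the 20 genes are also testis genes. Dusp4, a phosphatase that turns ERK off, read 7.66, 7.72 and 7.71 in XX and 8.23, 8.27 and 8.10 in XY. The replicates were almost identical within each sex. The difference was 0.50 ± 0.11 (adjusted p = 0.339, and 0.0261 without WT XX replicate 1). The ERK feedback inhibitors Spred2 and Spry1 had 0.43 ± 0.13 (adjusted p = 0.459, and 0.0199 without WT XX replicate 1) and 0.34 ± 0.13 (adjusted p = 0.460, and 0.178). Among 26 WNT and R-spondin genes, 8 had every XY array higher (9.99% of all autosomal genes) and 1 every XX array higher (3.21%), with a median of 0.16 against 0.03 over all autosomal genes (0.11 against 0.02 without WT XX replicate 1). Of these 26 genes 9 are also ovary genes, and among the other 17 those counts were 7 and 0. The WNT antagonist Dkk1 had 0.49 ± 0.15 (adjusted p = 0.459, and 0.0488 without WT XX replicate 1). Rspo3, an R-spondin ligand, had 0.48 ± 0.20 (adjusted p = 0.462), and 0.28 without that array (adjusted p = 0.417).

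Of 18 hedgehog, Notch and interstitial genes, 3 had every XY array higher, against 9.99% of all autosomal genes, and the median of 0.04 became -0.03 without WT XX replicate 1. Hes1, a target of Notch signalling, read 8.72, 8.22 and 8.19 in XX and 9.01, 9.05 and 8.94 in XY. The XY arrays agree closely, and WT XX replicate 1 is the nearest to them. The difference was 0.62 ± 0.16 (adjusted p = 0.449, and 0.00617 without that array). The interstitial transcription factor Maf had -0.59 ± 0.26 with replicate 1 (adjusted p = 0.466) and -1.01 without it (adjusted p = 0.00176), but -0.37 and -0.38 without XX replicates 2 and 3. The 28 activin, BMP and TGF-beta genes had a median of 0.02, the 18 retinoic acid genes 0.02 and the 10 steroidogenic genes -0.03, and without WT XX replicate 1 these were 0.04, -0.03 and -0.04. In the first of these lists 1 gene had separate groups, in the second 2, Cyp26b1 among them, and in the third 0, against 13.2% of all autosomal genes.

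Markers of other cells in the cut tissue were measured on the same arrays. Their part in the differences above was not tested. Of 19 germ cell markers none was called, and their levels summed on the linear scale overlapped, from 8292 to 10554 in XX and from 7577 to 9880 in XY. In 2 of the 19 markers every XY array lay above every XX array, against 9.99% of all autosomal genes. These were the germ cell RNA-binding proteins Dazl and Ddx4. Differences were above 0 in 12 of the 19 markers and below 0 in 7. Dazl read 5.35, 5.69 and 4.98 in XX and 6.65, 6.16 and 5.83 in XY, a difference of 0.87 ± 0.23 (adjusted p = 0.449, and 0.0425 without WT XX replicate 1). Ddx4 had 0.69 ± 0.24 (adjusted p = 0.459, and 0.0698 without WT XX replicate 1), and 0.39 without WT XX replicate 3.

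The summed level of 10 mesonephros markers did not overlap, from 1110 to 1374 in XX and from 1446 to 1502 in XY. This rested on Calb1: the other 9 markers summed to 567, 822 and 800 in XX and to 553, 620 and 583 in XY, which overlap with a lower XY mean. The calcium-binding protein gene Calb1 had the widest difference among them, with 9.55, 9.11 and 8.28 in XX and 9.89, 9.69 and 9.81 in XY (0.82 ± 0.28, adjusted p = 0.459, 0.0189 without WT XX replicate 1, and a difference of 0.47 without WT XX replicate 3). Epcam, an adhesion molecule of tubule epithelium, went the other way at -0.63 ± 0.23 (adjusted p = 0.460, and 0.00821 without WT XX replicate 1). Coelomic epithelium markers summed to between 6306 and 7874 in XX and between 6893 and 8078 in XY, endothelial markers to between 4568 and 5549 and between 5368 and 6045, and neural markers to between 805 and 1353 and between 845 and 909. Macrophage markers (from 2066 to 2968 in XX, from 2079 to 2615 in XY), erythroid markers (from 48038 to 51907, and from 50636 to 53140) and smooth muscle markers (from 1428 to 1766, and from 1161 to 1600) also overlapped. None of these lists held a called gene. The medians of the neural and smooth muscle markers went from -0.10 to -0.26 and from 0.02 to -0.09 without WT XX replicate 1.

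Nor did the 16 immediate early and heat shock genes or the 19 proliferation genes. Atf3, a stress-induced transcription factor, read 5.59, 5.75 and 5.54 in XX and 6.27, 5.94 and 6.22 in XY (0.52 ± 0.12, adjusted p = 0.361, and 0.0299 without WT XX replicate 1). The mitotic cyclin Ccnb2 had 0.39 ± 0.15 (adjusted p = 0.460, and 0.0436 without WT XX replicate 1), with all XY arrays higher, and 0.21 without WT XX replicate 2. Aurka and Dnajb1 went the other way. Aurka had -0.36, and -0.60 without WT XX replicate 1 (adjusted p = 0.0186). Dnajb1 had -0.34, and -0.67 without that array (adjusted p = 0.0157). Without it, 1 proliferation gene was called higher in XY and 2 higher in XX. The immediate early and heat shock list had 1 each way, against 4.96% and 5.42% of all autosomal genes. With all arrays both list medians were 0.06, against 0.03 over all autosomal genes.

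Without WT XX replicate 1 the picture changed in size. Then 1806 autosomal genes were called (10.4%), 863 higher in XY (4.96%) and 943 higher in XX (5.42%), and 165 differed by 2-fold or more, 29 higher in XY and 136 higher in XX. The 5 genes called with all arrays were among them. Centring the arrays on their medians gave 647 higher in XY and 1114 higher in XX. In 387 of the 1806 genes the XY and XX groups did not overlap when WT XX replicate 1 was put back, against 13.2% of all autosomal genes. Of these, 319 were higher in XY and 68 higher in XX. The 1806 genes were selected for a difference between the other wild-type arrays, so this count follows in part from that selection.

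WT XX replicate 1 played no part in calling the 1806 genes, so its own values in them are a separate measurement. It lay nearer to the XY mean than to the mean of WT XX replicates 2 and 3 in 1716 of them and nearer to the latter in 90. On a scale with 0 at the mean of those XX arrays and 1 at the XY mean, its median position was 1.08, with quartiles of 0.867 and 1.30. Sox9 had a position of 0.00, and of those 90 genes 78 were higher in XY. The knockout XX mean lay nearer to WT XX replicates 2 and 3 than to WT XY in 765 (81.1%) of the 943 genes higher in XX and in 566 (65.6%) of the 863 higher in XY, against 54.9% of all autosomal genes. The knockout XY mean also lay nearer to those XX arrays in 580 (61.5%) of the genes higher in XX and in 459 (53.2%) of those higher in XY, against 51.3% of all autosomal genes.

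**Figure D3:**
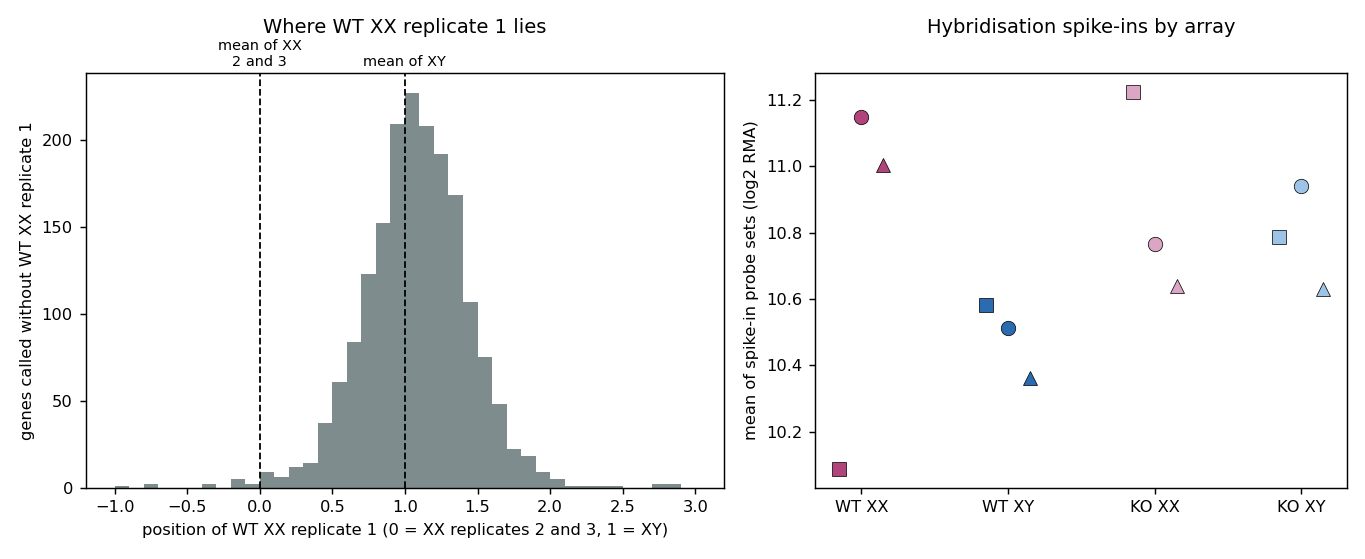
Left, the number of genes (y axis) among the 1806 called without WT XX replicate 1 by the position of that array (x axis), where 0 is the mean of WT XX replicates 2 and 3 and 1 the WT XY mean; 1 gene below -1 is drawn at the edge. Right, the mean of 9 spike-in probe sets (log2 RMA) in every array of the 4 groups. The positions peak near 1, and WT XX replicate 1 has the lowest spike-in mean, at 10.09.

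Rbm25, an RNA-binding splicing regulator, shows the pattern at its widest and was chosen after its values were seen, as were the genes of this paragraph. It read 8.17, 10.95 and 10.85 in WT XX and 8.04, 8.60 and 8.64 in WT XY. WT XX replicate 1 lay with the XY arrays, and the difference went from -1.57 ± 0.52 (adjusted p = 0.459) to -2.48 without it (adjusted p = 4.08e-05). Dstyk, a dual-specificity kinase, read 8.57, 10.73 and 10.60 in XX and 8.83, 8.97 and 8.85 in XY. The cadherin Cdh2 read 9.02, 11.13 and 10.99 in XX and 9.27, 9.35 and 9.41 in XY. For both, replicate 1 was below every XY array. Tcf7l2, a transcription factor of the WNT pathway, had separate groups, with 6.98, 8.22 and 8.14 in XX and 6.90, 6.77 and 6.85 in XY, again with replicate 1 beside XY (-1.34 without it, adjusted p = 7.71e-05).

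Array measures moved with these calls. WT XX replicates 2 and 3 both had a higher spike-in mean than any WT XY array, so over the 5 arrays left the spike-in level and sex cannot be told apart. With the spike-in mean as a covariate 15 of the 1806 genes were called, 6 higher in XY (Sox9, Mmd2, Cnga1, Abcb1a, Ces1d and Folr1) and 9 higher in XX. With the Gapdh difference as a covariate 306 were called, 87 higher in XY and 219 higher in XX. Of the 1806 genes, 855 had a second probe set with a mean above 6, and it went the same way in 555 (64.9%), with a median size in either direction of 0.26 against 0.61 in the first. Taken in the direction of the first probe set, the median of the second was 0.12. Over all autosomal genes with such a probe set 60.6% went the same way. There the second had a median size in either direction of 0.21, and of 0.07 in the direction of the first.

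**Figure D4:**
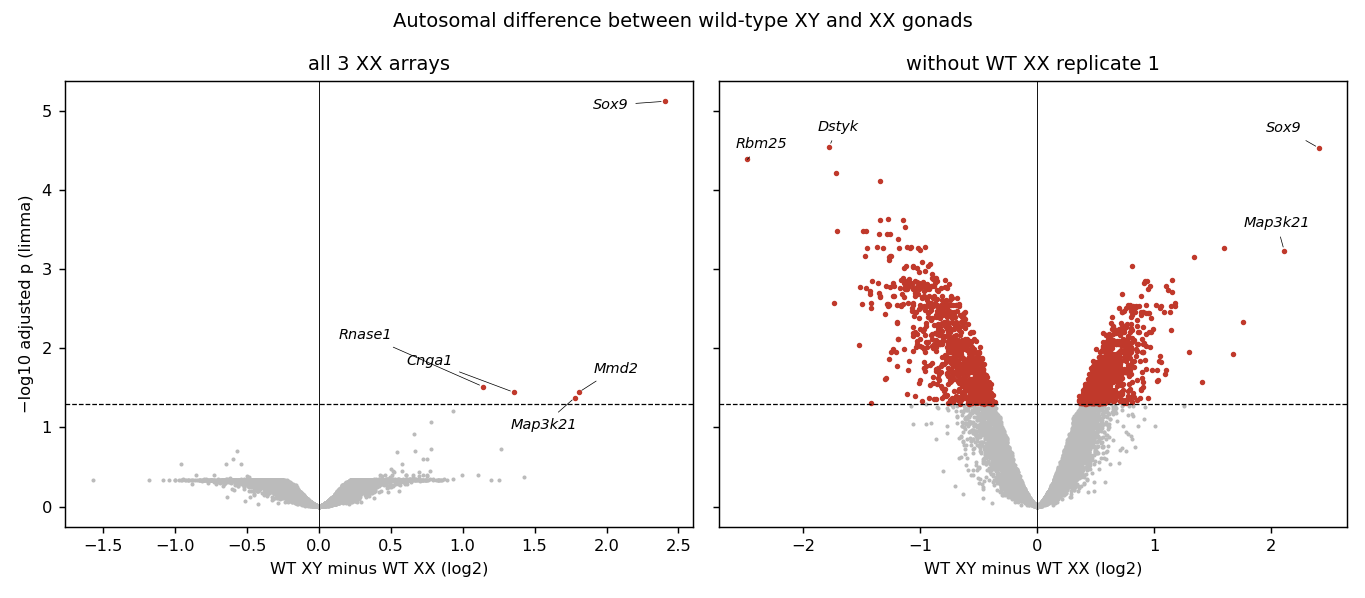
Each point is an autosomal gene, with its difference between WT XY and WT XX (x axis, log2) and the -log10 of its adjusted p from limma (y axis), with all XX arrays on the left and without WT XX replicate 1 on the right; red marks genes called, above the dashed line at an adjusted p of 0.05. On the left 5 genes are red, all to the right of 0, and on the right 1806 are red on both sides.

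The same sex difference was set beside that of the knockout arrays, which share no array with it. In the knockout 0 autosomal genes were called between XY and XX by limma, and 1719 (9.88%) had an unadjusted p under 0.05. The difference between both sex differences was called for 1 autosomal gene (0.00575%), Sox9, and 1108 (6.37%) had an unadjusted p under 0.05. In the knockout Sox9 averaged 6.35 ± 0.39 (SD, n = 3) in XX and 5.95 ± 0.23 in XY, an XY minus XX difference of -0.39 ± 0.18 (adjusted p = 0.4997). The wild-type difference exceeded it by 2.80 ± 0.26 (adjusted p = 0.000576). For Mmd2, Map3k21, Cnga1 and Rnase1 the wild-type difference exceeded that of the knockout by 2.21 ± 0.41, 1.84 ± 0.41, 1.61 ± 0.31 and 0.94 ± 0.25, and none of these passed (adjusted p from 0.391 to 0.690). Without WT XX replicate 1 the difference was called for 10 genes. Across the 17404 autosomal genes, which are not independent replicates, the wild-type and knockout sex differences correlated at r = 0.248 (Spearman rho 0.186).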

How the data were processed

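Biotin-labelled RNA of 12 pools was hybridised to Affymetrix mouse arrays. The deposited values are on the log2 scale, and the submitters' processing notes name RMA, Affymetrix Expression Console and affy, whose versions the sources used here do not give. The values were used as given. Of 45101 probe sets, 34945 belong to a single gene; each gene took the one with the highest mean over the 12 arrays (18193 genes, 17404 autosomal, 617 on X, 9 on Y and 163 with no chromosome).

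The 4 groups were fitted together in limma 3.58.1 under R 4.3.3 (lmFit, eBayes, 4 group means, 8 residual degrees of freedom, two-sided, Benjamini-Hochberg over all genes). The wild-type contrast was also run on simulated data with 18193 genes. Each gene kept its measured mean and spread, and noise was drawn independently for every gene and array. The simulation thus held no array that deviates in many genes together, as WT XX replicate 1 does. In the simulation the fit recovered 90% of 100 genes shifted by 1 and 100% of 100 shifted by 2, with 12 unshifted genes called. The share recovered on the measured arrays was not tested. On those arrays 14 autosomal genes differed by 2-fold or more, and 5 autosomal genes were called. The number of arrays limits the precision. Alternatives covered the scaling, filter, probe set, prior, array weights, covariates and each array left out.

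Deviations from the group means correlated at 0.102 to 0.237 over the 3 same-numbered pairs of WT XX and WT XY arrays. Over the 6 pairs of different numbers the correlations ran from -0.278 to 0.230. So few pairs cannot settle whether the numbers mark pairs within wild type. The main fit left the numbers out, so its standard errors and p-values take no account of such pairs. The replicate block was fitted as an alternative. Over all 18 same-numbered pairs the correlations ran from -0.211 to 0.278, so the numbers do not pair arrays across all groups. The block was nevertheless fitted over the 12 arrays. The labels do not say what the numbers mark. The members, lists and tests were chosen with earlier results of these data known. Named genes were called autosomal genes with separate groups (up to 15 each way), members of the testis, ovary and early gonad lists, up to 4 of smallest p in each other list, and genes called in the interaction; others are said to be chosen after their values were seen. Genes named only because an alternative called them (Fbln2, Glra1, Abcb1a, Ces1d and Folr1) were also chosen after their values were seen.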

Additional observations from a re-analysis of the deposited data

Results flagged for a closer look

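The sex difference of Sox9 was larger in wild type than in the knockout by 2.80 on the log2 scale (limma interaction, adjusted p = 0.000576), and the test of that difference is what singled it out. In wild type every XY array (8.56 to 8.96) lay above every XX array (6.14 to 6.48), while in the knockout all 6 arrays lay between 5.70 and 6.79. The direction was the same with each array left out in turn.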

How the results depend on the processing

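Of the 5 calls, Sox9 held in every alternative that tested it. The count was 1 with the wild-type arrays alone, 1 with p-values adjusted over autosomal genes, 1 at an adjusted p under 0.01, 2 with the wild-type arrays alone and the replicate block, 3 with a trended robust prior, and 0 among genes with a mean above the median gene, a filter that removed all 5. It was 1143 with array weights (612 higher in XY, 531 in XX; WT XX replicate 1 had the lowest weight, 0.303). With single arrays left out it ran from 1 to 1806, and was 1 to 5 except without WT XX replicate 1. The replicate block gave 6 calls, 5 higher in XY and 1 higher in XX. Rnase1 was lost, and Fbln2 (higher in XY) and Glra1 (higher in XX) were gained. No other call changed, the knockout and interaction counts included. Leaving out single arrays gave 0 to 3 calls in the knockout and 1 to 10 in the interaction, the 10 without WT XX replicate 1. Without WT XX replicate 1, the 1806 calls became 910 with the mean of all probe sets, 306 with the Gapdh covariate, 15 with the spike-in covariate, and 758 to 1260 with single XY arrays left out as well. The cause was not tested. Over 125 named genes and 26 alternatives no direction reversed among called values. The covariate for spike-ins, the mesonephros sum without Calb1 and all alternatives that combine settings with the loss of WT XX replicate 1 were chosen after seeing the data.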

Other observations

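Several genes short of the threshold had separate groups. They were chosen after their values were seen. Fbln2, an extracellular matrix protein, read 5.43, 5.52 and 5.54 in WT XX and 6.85, 6.12 and 6.31 in WT XY (0.93 ± 0.16, adjusted p = 0.0617). Gdnf, a growth factor that Sertoli cells later supply to germline stem cells, read 4.37, 3.99 and 3.99 in XX and 5.16, 4.85 and 4.68 in XY (0.78 ± 0.16, adjusted p = 0.187). These levels were low: the Y-linked gene Uty read between 3.57 and 3.67 in WT XX. Anxa4, a calcium-dependent membrane-binding protein, read 8.54, 8.51 and 8.28 in XX and 9.31, 9.01 and 8.99 in XY (0.66 ± 0.12, adjusted p = 0.123). Miga1, a mitochondrial outer membrane protein, went the other way, with 7.72, 7.97 and 8.004 in XX and 7.29, 7.39 and 7.30 in XY (-0.57 ± 0.12, adjusted p = 0.199).

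The genes below were chosen because WT XX replicate 1 exceeded all other 11 arrays in them by the widest margin, predicted and unnamed genes left out. How many genes had their highest value in that array was not counted. Cryl1, a crystallin-related enzyme, read 11.51 there, 7.98 and 8.23 in the other XX arrays and 9.14, 8.96 and 9.77 in XY. E2f5, a cell cycle transcription factor, read 12.28 there, 9.54 and 9.72 in the other XX arrays and 10.39, 10.25 and 11.02 in XY. Pik3cd, a lipid kinase subunit, read 11.37 there and between 9.19 and 9.93 in the other wild-type arrays.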
